A study of Rattus norvegicus with 17 samples.

Results

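NF-kB is a family of dimeric transcription factors, and 10 of its subunits, feedback regulators and adhesion targets were followed in rat liver after bile duct ligation, with and without ghrelin. The genes were Nfkb1, Nfkb2, Relb, Rela, Nfkbia, Tnfaip3, Birc3, Bcl3, Icam1 and Vcam1. Probe sets were taken when the platform annotation gave them exactly 1 of these symbols, which found 12 probe sets of 31042 that are not controls. Bcl3 had 3 probe sets, and each of the other 9 genes had 1. A filter retained probe sets read above the median of all values (15.5, or 3.95 on the log2 scale) on 5 or more arrays, and 11 of the 12 were retained, among 15965 in all.

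Affymetrix Rat Genome 230 2.0 arrays were used for liver RNA of 17 rats, 1 array for each. In the ligated ghrelin group (5 rats) the bile duct was tied off and ghrelin was given at 10 µg/kg/day, in the ligated saline group (6 rats) the duct was tied off and saline was given, and the sham group (6 rats) had an abdominal incision and saline. A subcutaneous osmotic minipump delivered the infusion in all groups, surgery fell at week 7 and the livers were collected at week 9. Tying the duct stops bile from leaving the liver and leads to cholestasis and scarring, and ghrelin is a stomach hormone that signals through the growth hormone secretagogue receptor. The labels name neither the strain nor the sex of the rats, and no group analysed here received ghrelin without ligation. Each array came from a separate rat, so the spread within a group holds the differences between animals together with those of sample handling and arrays. Precision is limited by how few arrays each group has.

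NF-kB dimers are held in the cytoplasm by inhibitor proteins until IkB kinases mark these for destruction. In the canonical arm, tumour necrosis factor, interleukin-1 and Toll-like receptors release dimers of Rela with the product of Nfkb1, and in the non-canonical arm lymphotoxin beta receptor, CD40 and related receptors stabilize the kinase NIK, which drives processing of the Nfkb2 precursor and frees dimers of its product with Relb. Many of the genes induced by these dimers encode parts of the system itself, among them Nfkbia and Tnfaip3, which shut it off again. In liver, NF-kB protects hepatocytes from death induced by tumour necrosis factor and drives inflammatory genes in macrophages, stellate cells and endothelium.

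The start regions of the 10 genes were searched for the kB consensus, a pattern that describes sequences bound by NF-kB dimers, because such sequences link the factor to its own feedback genes. The pattern was GGGRNNYYCC, where R is A or G, Y is C or T and N is any base. RefSeq promoter sequences of the rat build GRCr8, from 250 bases before to 50 bases after the annotated start, were at hand for 8 of the 10 genes. Relb and Birc3 were not in that table. All 8 regions are shown, because the motif and the change after ligation did not always go together. Nfkb2, Tnfaip3, Nfkbia, Nfkb1 and Vcam1 carry it and rose, Bcl3 carries it and did not pass the test, Icam1 rose and carries none, and Rela carries none and did not pass. Sequences run 5′ to 3′ on the strand of the gene, and capitals mark matches to the kB consensus on either strand.
Nfkb2, chr1:255108124-255108423, plus strand: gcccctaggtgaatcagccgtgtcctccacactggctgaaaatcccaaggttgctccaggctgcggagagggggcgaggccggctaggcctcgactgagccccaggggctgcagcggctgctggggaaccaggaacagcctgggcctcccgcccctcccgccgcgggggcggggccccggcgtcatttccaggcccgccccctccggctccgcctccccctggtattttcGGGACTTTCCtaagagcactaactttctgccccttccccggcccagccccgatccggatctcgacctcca
Tnfaip3, chr1:15543930-15544229, minus strand: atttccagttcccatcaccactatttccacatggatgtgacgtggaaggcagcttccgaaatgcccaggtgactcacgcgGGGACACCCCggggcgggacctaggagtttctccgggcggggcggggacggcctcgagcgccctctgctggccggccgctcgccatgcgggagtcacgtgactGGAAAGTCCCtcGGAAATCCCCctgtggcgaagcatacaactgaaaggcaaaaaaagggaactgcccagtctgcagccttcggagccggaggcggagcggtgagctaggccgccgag
Nfkbia, chr6:78597023-78597322, minus strand: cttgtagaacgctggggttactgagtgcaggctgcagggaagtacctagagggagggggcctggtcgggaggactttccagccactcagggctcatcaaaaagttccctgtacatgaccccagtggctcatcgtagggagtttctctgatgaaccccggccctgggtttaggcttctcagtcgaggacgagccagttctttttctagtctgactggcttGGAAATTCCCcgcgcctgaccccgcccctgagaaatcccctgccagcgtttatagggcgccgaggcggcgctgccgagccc
Nfkb1, chr2:226805413-226805712, minus strand: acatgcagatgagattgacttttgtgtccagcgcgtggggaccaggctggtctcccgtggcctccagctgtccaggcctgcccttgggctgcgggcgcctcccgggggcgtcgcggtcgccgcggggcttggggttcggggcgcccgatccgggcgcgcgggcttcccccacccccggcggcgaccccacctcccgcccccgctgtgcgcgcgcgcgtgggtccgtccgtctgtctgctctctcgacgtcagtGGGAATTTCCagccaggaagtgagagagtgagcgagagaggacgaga
Vcam1, chr2:206742734-206743033, minus strand: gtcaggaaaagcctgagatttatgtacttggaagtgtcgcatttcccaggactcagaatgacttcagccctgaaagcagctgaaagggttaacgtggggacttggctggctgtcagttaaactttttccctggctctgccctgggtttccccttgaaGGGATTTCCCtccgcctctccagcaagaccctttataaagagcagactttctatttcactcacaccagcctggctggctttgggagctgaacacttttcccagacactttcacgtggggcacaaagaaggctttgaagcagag
Bcl3, chr1:88613506-88613805, minus strand: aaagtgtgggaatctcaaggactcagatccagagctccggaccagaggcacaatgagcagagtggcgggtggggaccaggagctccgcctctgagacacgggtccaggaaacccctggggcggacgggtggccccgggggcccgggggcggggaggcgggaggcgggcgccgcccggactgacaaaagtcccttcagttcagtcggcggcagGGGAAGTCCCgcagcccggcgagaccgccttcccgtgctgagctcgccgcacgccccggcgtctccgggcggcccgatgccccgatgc
Icam1, chr8:27829595-27829894, plus strand: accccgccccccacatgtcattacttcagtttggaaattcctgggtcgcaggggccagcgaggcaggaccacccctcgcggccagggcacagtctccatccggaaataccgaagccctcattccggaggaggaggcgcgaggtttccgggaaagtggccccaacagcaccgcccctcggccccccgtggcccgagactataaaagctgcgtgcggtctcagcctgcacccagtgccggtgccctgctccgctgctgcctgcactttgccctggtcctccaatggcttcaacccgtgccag
Rela, chr1:212354086-212354385, plus strand: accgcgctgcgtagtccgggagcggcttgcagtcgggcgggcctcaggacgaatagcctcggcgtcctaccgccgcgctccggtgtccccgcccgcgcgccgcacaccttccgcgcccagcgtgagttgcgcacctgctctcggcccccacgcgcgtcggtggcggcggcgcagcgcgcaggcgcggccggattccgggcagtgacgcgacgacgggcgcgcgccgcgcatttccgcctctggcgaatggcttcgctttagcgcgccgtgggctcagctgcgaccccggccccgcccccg

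A kB match was found in 6 of the 8 regions (75%), against 2515 of 33469 rat promoters of the same length (7.51%). These genes were chosen as parts and targets of the NF-kB system, so the higher share is no result of these arrays. Counting the first base after the start as 0, the match lay at position 3 to 12 in Nfkb1, -20 to -11 in Nfkb2, -31 to -22 in Nfkbia, -38 to -29 in Bcl3 and -93 to -84 in Vcam1. Tnfaip3 carried 3 matches, at -170 to -161, -67 to -58 and -55 to -46, and 1.13% of all promoters carried 2 or more. No match was present in the regions of Rela and Icam1, which says only that these letters are absent from this window. Sequences that depart from the pattern by a single base were not counted or marked in any region, so the search cannot show that a region lacks kB sites. TGANTCA, a looser form of the core TGASTCA (S is C or G) of sites for AP-1 factors, was searched on both strands for comparison. It was present in Nfkb2 (as TGAATCA, which departs from that core) and Tnfaip3 (as TGACTCA), 25% of the 8, against 7.33% of all promoters. None of the kB matches overlapped a TGANTCA match. These matches are a description of sequence, and binding was not measured.

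**Figure D1:**
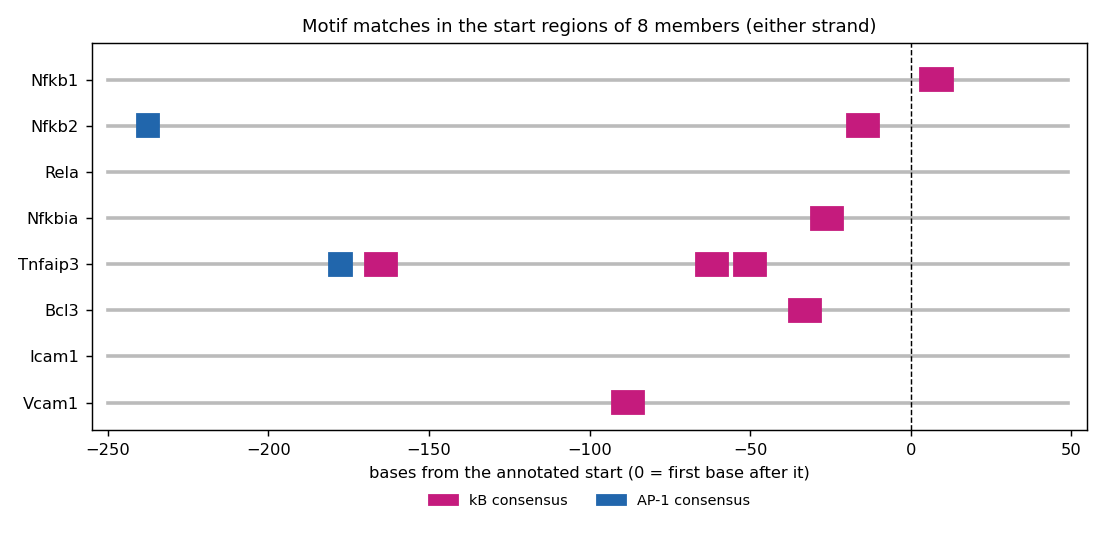
Positions of kB consensus and TGANTCA matches (the latter labelled AP-1 consensus) in the start regions of 8 of the genes, in bases from the annotated start. Each grey line spans 250 bases before to 50 after that start. Tnfaip3 carries 3 kB matches, and Rela and Icam1 carry none.

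Values are given as log2 of the deposited intensity. The array median intensity lay between 15.4 and 16.4 in ligated ghrelin, between 16.1 and 17.5 in ligated saline and between 14.2 and 14.7 in sham arrays. As a check of the labelled tissue, the summed intensity of 10 hepatocyte marker genes, albumin among them, was 251669 to 267699 in ligated ghrelin, 237809 to 263326 in ligated saline and 259481 to 277042 in sham livers. Among the sham arrays, sham 5 stood apart for the 10 NF-kB genes followed here. Its mean over these 10 NF-kB genes, with 1 probe set each, was 0.51 log2 units above the sham mean. The other 5 sham arrays lay between -0.27 and 0.01, and results that rest on sham 5 are given with and without it.

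Markers of several cell types differed between ligated and sham livers. All 7 retained cholangiocyte markers (including Krt19, Epcam and Cftr), 7 of 8 macrophage markers (including Cd68, Csf1r and C1qa), 3 of 3 neutrophil markers (S100a8, S100a9, Csf3r), and 8 of 9 stellate and myofibroblast markers (including Col1a1 and Acta2) rose in ligated saline livers, beside 37.5% of all genes called higher. The remaining stellate and myofibroblast marker fell (-0.62). Summed marker intensity of cholangiocytes was 7089 to 11492 in ligated ghrelin, 5811 to 18295 in ligated saline and 364 to 711 in sham livers. For macrophages the sums were 15285 to 22708, 20407 to 25408 and 8492 to 14640 in ligated ghrelin, ligated saline and sham livers, and for stellate cells and myofibroblasts 14880 to 20704, 18540 to 36110 and 3564 to 4835. Neutrophil markers summed to 3641 to 7584 in ligated ghrelin, 1703 to 6547 in ligated saline and 214 to 574 in sham livers. Endothelial sums overlapped in all 3 groups, at 3949 to 6011, 4622 to 5843 and 4759 to 6108 in the same order, and 3 of the 8 markers rose and 1 fell in ligated saline livers, a share of rises like that of all genes. Of 9 lymphocyte markers on the array only Cd3e, Cd4 and Lck were retained, and the B cell markers Ms4a1 and Cd79b were not. Of the 3, Cd4 and Lck rose in ligated saline livers, and the sums were 124 to 251 in ligated ghrelin, 159 to 415 in ligated saline and 93 to 154 in sham livers. Of the 10 hepatocyte markers 5 fell in ligated saline livers, beside 27.2% of all genes called lower. The part of these cell types in the results below was not tested, and in whole liver a change in the number of cells of a type cannot be told apart from a change in RNA per cell.

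The first comparison, ligated saline with sham, asked what ligation did to the system. Of the 11 probe sets, 8 rose and 0 fell at an adjusted p under 0.05 in limma, against 34.2% of all 15965 probe sets called higher and 61.5% called in either direction. In 7 of the 11 the ligated saline and sham values did not overlap, against 40.9% of all probe sets. The median change of the 11 was 1.65 log2 units, beside 0.04 over all probe sets. The 3 probe sets that did not pass were those of Rela and the 2 of Bcl3. Birc3 rose most, by 3.54 ± 0.269 (log2 change ± SE, n = 6 and 6), which is 11.6 times its sham level.

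**Figure D2:**
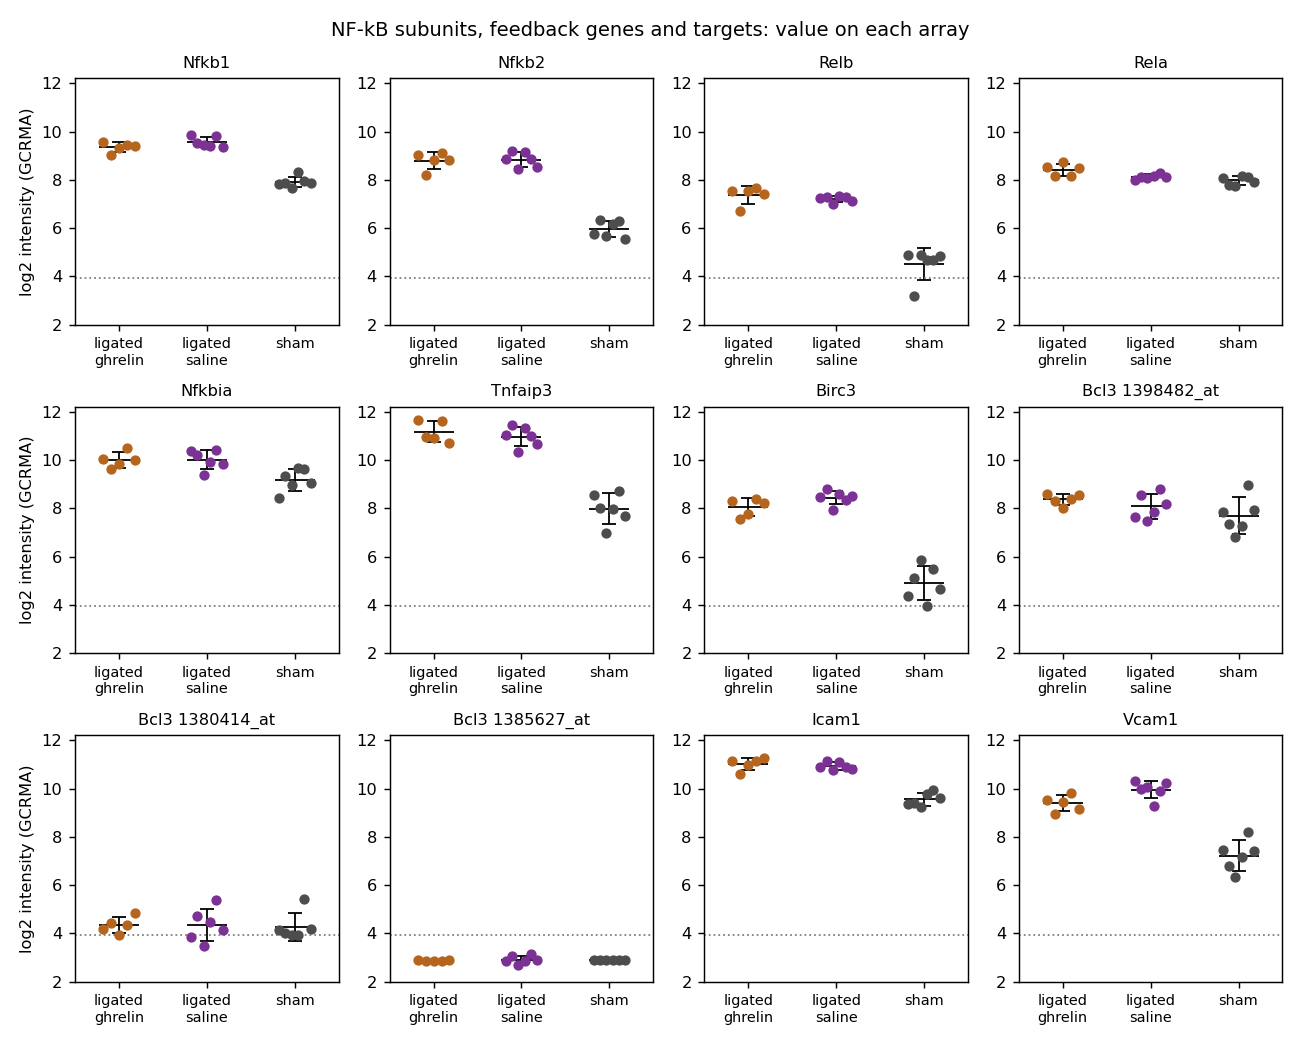
Log2 intensity of all 12 probe sets on each of the 17 arrays, with the mean and SD of each group in black, and the filter level of 3.95 as a dotted line. The ligated groups lie together and clear of sham for Nfkb1, Nfkb2, Relb, Tnfaip3, Birc3, Icam1 and Vcam1, and all 3 groups overlap for Rela, Nfkbia and Bcl3.

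Nfkb2 encodes the precursor processed in the non-canonical arm and rose 7.33 times. Its log2 intensity was 9.04, 8.19, 8.81, 9.12 and 8.82 in ligated ghrelin livers, 8.46 to 9.18 (median 8.85) in ligated saline livers, and 5.54 to 6.33 (median 5.97) in sham livers. Every ligated liver read higher than every sham liver, and the ligated groups overlapped. The change between ligated saline and sham was 2.87 ± 0.184 (adjusted p = 2.58e-09, limma).

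Relb, the transactivating partner of the Nfkb2 product, rose to a similar extent. It read 7.54, 6.71, 7.53, 7.65 and 7.40 in ligated ghrelin livers, 7.00 to 7.34 (median 7.28) in ligated saline livers and 3.20 to 4.90 (median 4.77) in sham livers. Sham 2 was the low value of 3.20, below the filter level, and the other sham livers lay between 4.67 and 4.90. Ligated and sham values did not overlap, and the change for ligated saline was 2.69 ± 0.243 (adjusted p = 1.07e-07, limma).

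Nfkb1 encodes the precursor of the canonical DNA-binding subunit. It read 9.57, 9.02, 9.31, 9.44 and 9.39 in ligated ghrelin livers, 9.38 to 9.84 (median 9.50) in ligated saline livers and 7.66 to 8.31 (median 7.88) in sham livers. All ligated livers were above all sham livers, and the change for ligated saline was 1.65 ± 0.119 (adjusted p = 9.17e-09, limma), or 3.15 times.

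Rela, the main transactivating subunit of the canonical arm, moved little. It read 8.52, 8.14, 8.73, 8.14 and 8.49 in ligated ghrelin livers, 7.98 to 8.30 (median 8.12) in ligated saline livers and 7.76 to 8.15 (median 8.01) in sham livers. The 3 groups overlapped. Ligated saline differed from sham by 0.15 ± 0.107 (95% interval -0.08 to 0.38, adjusted p = 0.238, limma), which did not pass the test.

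The ratio of transcripts within an array shows whether 2 subunits changed unequally, and any factor that scales a whole array cancels in it. The log2 ratio of Nfkb2 to Nfkb1 was -0.73 ± 0.33 in ligated saline and -1.95 ± 0.30 in sham livers (SD, n = 6 each). The difference was 1.22 (exact two-sided permutation p = 0.00216, adjusted p = 0.00649 over 12 such tests), and the ratios did not overlap between the groups. The log2 ratio of Relb to Rela was -0.91 ± 0.15 in ligated saline and -3.45 ± 0.61 in sham livers, a difference of 2.54 with the same p values and again with no overlap. That p of 0.00216 is the smallest this design can give. For the partners Nfkb2 and Relb the difference between ligated saline and sham was 0.19 (exact p = 0.667, adjusted p = 0.727), with sham 2 adding to a sham SD of 0.91. The non-canonical subunits changed by more than their canonical counterparts on the same arrays, at the level of these probe sets.

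Among the genes that restrain or follow the response, Tnfaip3 and Birc3 rose most. Tnfaip3 encodes a ubiquitin-editing enzyme that switches off signalling to NF-kB. Its values were 11.64, 10.96, 10.93, 11.62 and 10.70 in ligated ghrelin livers, 10.33 to 11.43 (median 11.03) in ligated saline livers and 6.96 to 8.73 (median 7.99) in sham livers. Ligated and sham livers did not overlap, sham 3 was the lowest and sham 5 the highest of the sham values, and the change for ligated saline was 2.98 ± 0.273 (adjusted p = 1.19e-07, limma), or 7.91 times.

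Birc3 encodes a ubiquitin ligase of the receptor complexes that also keeps NIK low in resting cells. It read 8.31, 7.57, 7.75, 8.39 and 8.23 in ligated ghrelin livers, 7.95 to 8.80 (median 8.49) in ligated saline livers and 3.95 to 5.86 (median 4.90) in sham livers. No sham liver reached the lowest ligated value, 7.57 in ligated ghrelin 2, and sham 4 was the lowest of all at 3.95. The change for ligated saline, given above, had an adjusted p of 1.6e-08 in limma.

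Nfkbia encodes the IkB alpha protein, the inhibitor that is destroyed on activation and made again under NF-kB control. It read 10.05, 9.64, 9.84, 10.50 and 10.00 in ligated ghrelin livers, 9.39 to 10.42 (median 10.05) in ligated saline livers and 8.42 to 9.68 (median 9.18) in sham livers. The groups overlapped, since sham 4 and sham 5 read 9.68 and 9.63 and ligated saline 3 read 9.39. The rise in ligated saline livers was 0.84 ± 0.219 (adjusted p = 0.00319, limma), or 1.79 times.

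Bcl3 encodes an atypical IkB protein that works in the nucleus as a coactivator. The brightest of its probe sets, 1398482_at, read 8.59, 8.31, 8.02, 8.39 and 8.55 in ligated ghrelin livers, 7.46 to 8.81 (median 8.01) in ligated saline livers and 6.83 to 8.98 (median 7.60) in sham livers. The groups overlapped, with sham 5 the highest value of all 17 arrays. The change for ligated saline was 0.38 ± 0.301 (adjusted p = 0.287, limma) with all arrays, and 0.63 (adjusted p = 0.0354) without sham 5. Probe set 1380414_at lay near the filter level, with 4.17, 4.44, 3.93, 4.35 and 4.84 in ligated ghrelin livers, 3.48 to 5.40 in ligated saline livers and 3.93 to 5.43 in sham livers. Its change was 0.06 ± 0.301 (adjusted p = 0.874, limma). The third, 1385627_at, averaged 2.88 in ligated ghrelin, 2.92 in ligated saline and 2.88 in sham livers, below the filter level on all arrays, and was not tested.

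Icam1 and Vcam1 encode the adhesion molecules to which leukocyte integrins bind on endothelium and on injured liver cells. Icam1 read 11.15, 10.59, 10.98, 11.12 and 11.25 in ligated ghrelin livers, 10.76 to 11.15 (median 10.90) in ligated saline livers and 9.23 to 9.94 (median 9.51) in sham livers. Vcam1 read 9.54, 8.96, 9.43, 9.82 and 9.17 in ligated ghrelin livers, 9.28 to 10.30 (median 10.00) in ligated saline livers and 6.34 to 8.20 (median 7.28) in sham livers. For both genes ligated livers were all above sham livers. The change for ligated saline was 1.38 ± 0.132 for Icam1 (adjusted p = 1.88e-07, limma), or 2.61 times. For Vcam1 it was 2.73 ± 0.254 (adjusted p = 1.46e-07, limma), or 6.64 times. The log2 ratio of Icam1 to Vcam1 was 0.98 ± 0.48 in ligated saline and 2.33 ± 0.45 in sham livers (SD, n = 6 each), a difference of -1.35 (exact two-sided permutation p = 0.00433, adjusted p = 0.0104), with some overlap.

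The comparison of ligated ghrelin with ligated saline asked whether ghrelin altered the response. None of the 11 probe sets passed limma, against 2.22% of all probe sets and 2.34% of all genes. Their changes ran from -0.57 to 0.29 with a median of 0.00 (all probe sets -0.02), and the lowest adjusted p was 0.165. At an unadjusted p under 0.05 there were 2, Rela and Vcam1, against 21.3% of all probe sets. The count over all probe sets was 355 and was unsteady, with 35 when ligated ghrelin 2 was left out and 653 when ligated saline 4 was left out.

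**Figure D3:**
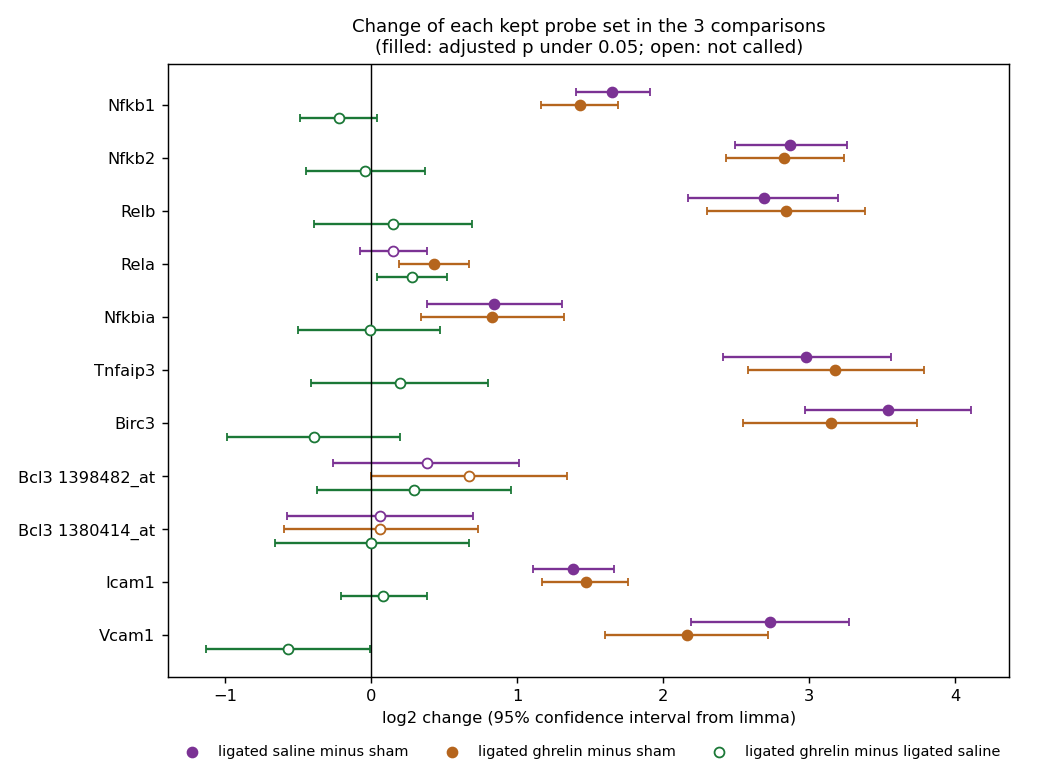
Log2 change with its 95% interval for each of the 11 retained probe sets in ligated saline minus sham (purple), ligated ghrelin minus sham (orange) and ligated ghrelin minus ligated saline (green), filled where the adjusted p was under 0.05. The green intervals lie between -1.13 and 0.96 and none is filled, though those of Rela (0.04 to 0.52) and Vcam1 (-1.13 to -0.01) do not include 0.

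The intervals bound the size of change that these arrays leave room for. For Nfkb2 the ghrelin change was -0.04 (95% interval -0.45 to 0.37), for Relb 0.15 (-0.39 to 0.69), for Nfkb1 -0.22 (-0.49 to 0.04) and for Nfkbia -0.01 (-0.50 to 0.47). For Icam1 it was 0.08 (-0.21 to 0.38). The intervals of Tnfaip3 (0.20, -0.41 to 0.80), Birc3 (-0.39, -0.99 to 0.20) and Bcl3 probe set 1398482_at (0.29, -0.37 to 0.96) were wider. The difference for Rela was 0.28 (0.04 to 0.52, adjusted p = 0.165, limma). All 5 ligated ghrelin livers read above the ligated saline mean of 8.13, but ligated ghrelin 2 and ligated ghrelin 4 only at 8.14. Of the 5, 3 read above every ligated saline liver. For Vcam1 it was -0.57 (-1.13 to -0.01, adjusted p = 0.23, limma), with all 5 ligated ghrelin livers below the ligated saline mean and ligated saline 4 (9.28) within their range. In the same comparison 2 of the 9 stellate and myofibroblast markers were called lower, beside 2.34% of all genes called in either direction. None of the 8 endothelial, 8 macrophage, 7 cholangiocyte, 3 neutrophil, 3 lymphocyte and 10 hepatocyte markers was called. The part of any cell type in the Vcam1 values was not tested.

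None of the 4 ratio comparisons passed after adjustment between ligated ghrelin and ligated saline. The log2 ratio of Icam1 to Vcam1 was 1.63 ± 0.28 in ligated ghrelin (SD, n = 5) and 0.98 ± 0.48 in ligated saline livers (n = 6), a difference of 0.65 (exact two-sided permutation p = 0.0325, adjusted p = 0.0557). Without ligated saline 4 that difference was 0.82 and its adjusted p 0.0159. Leaving out any other single array of these groups gave no call, with adjusted p up to 0.131. The differences were 0.18 for Nfkb2 to Nfkb1 (exact p = 0.281), -0.13 for Relb to Rela (exact p = 0.437) and -0.19 for Nfkb2 to Relb (exact p = 0.0584).

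Ligated ghrelin livers were also set against sham, a comparison that holds ligation and ghrelin together and shares the sham arrays with the first. Here 9 of 11 probe sets rose and 0 fell, against 29.9% of all probe sets called higher and 53.5% called in either direction. In 7 the values did not overlap, against 35.6% of all probe sets, and the median change was 1.47 (all probe sets 0.04). The additional call was Rela, with 0.43 ± 0.113 (adjusted p = 0.00419, limma, n = 5 and 6), higher than the sham mean in 5 of 5 livers while the groups overlapped. Whether that differs from the change of Rela in ligated saline livers is the comparison of the ligated groups, which did not pass. The changes of the other genes were 3.18 ± 0.286 for Tnfaip3, 3.15 ± 0.282 for Birc3, 2.84 ± 0.255 for Relb, 2.83 ± 0.193 for Nfkb2, 2.16 ± 0.267 for Vcam1, 1.47 ± 0.139 for Icam1, 1.43 ± 0.125 for Nfkb1 and 0.83 ± 0.23 for Nfkbia. Bcl3 probe set 1398482_at did not pass at 0.67 ± 0.316 (adjusted p = 0.0841, limma) and did without sham 5, at 0.93 (adjusted p = 0.00664). Without sham 2 and sham 5 together its change was 0.90 (adjusted p = 0.0153) for ligated ghrelin and 0.61 (adjusted p = 0.066) for ligated saline.

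The ratios to sham in ligated ghrelin livers were as follows. Nfkb2 over Nfkb1 differed by 1.40 and Relb over Rela by 2.41 (exact two-sided permutation p = 0.00216 and adjusted p = 0.00649 for each), with no overlap in either. Icam1 over Vcam1 differed by -0.69 (exact p = 0.0195, adjusted p = 0.039), a call that was lost when any 1 of sham 2, 3, 4 or 6 or of ligated ghrelin 1, 2, 3 or 4 was left out (adjusted p up to 0.0816).

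The other genes of the pathway give the setting of these changes. In 9 lists of ligands, receptors, adaptors, kinases, inhibitors and targets, 101 genes were listed, 90 were on the array and 71 were retained. Of these, 38 rose and 7 fell in ligated saline livers, against 37.5% of all 9736 genes called higher and 27.2% called lower. The lists' median change was 0.67, beside 0.07 over all genes and 2.17 over the 10 genes followed here. With quantile normalization 33 rose and 11 fell (32.1% and 36.4% of all genes), and with array medians set equal 35 rose and 17 fell (28.6% and 39.9% of all genes). In ligated ghrelin livers against sham 35 rose and 6 fell, against 35% and 21.2% of all genes. The balance within 3 lists turned with the scaling. With array medians set equal 4 adaptors rose and 6 fell, 2 kinases rose and 3 fell, and 2 survival genes rose and 3 fell, and with quantile normalization 4 adaptors rose and 3 fell and 2 survival genes rose and 3 fell.

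On the input side, of 4 retained ligands 3 rose, led by Ltb, a subunit of the lymphotoxin that engages the lymphotoxin beta receptor (4.11 ± 0.344), and Il1b (1.67 ± 0.438), while Tnf, Lta, Tnfsf11 and Cd40lg were below the filter. Of 8 receptors 5 rose, led by Tnfrsf12a, the receptor of the cytokine TWEAK (4.68 ± 0.325), and Tlr2, a receptor of bacterial lipoproteins (1.75 ± 0.346). The receptors Il1rap, which is the shared chain of interleukin-1 receptors, and Ltbr fell by 1.31 ± 0.137 and 0.35 ± 0.141, and Ltbr lost its call when any 1 of sham 2, 4, 5 or 6 or of ligated saline 1, 3, 5 or 6 was left out (adjusted p up to 0.0953). Of 15 adaptors 6 rose, a share near that of all genes, and 1 fell, with Traf3, which restrains NIK (1.64 ± 0.201), and Ripk2 (1.35 ± 0.234) at the top and Irak1 lower by a change of -0.29 ± 0.0865. Of 7 kinases 2 rose, Map3k8 (1.31 ± 0.206) and the IkB kinase Ikbkb (0.68 ± 0.108), and its partner Chuk fell by 0.58 ± 0.083. Of all genes 37.5% were called higher and 27.2% lower, so these counts do not set the kinases apart. Map3k14, the gene of NIK, was below the filter, so its level was not followed.

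On the output side, of 11 inhibitors 5 rose and 1 fell, beside 37.5% of all genes called higher and 27.2% called lower. Irak3 (1.61 ± 0.265) and the Tnfaip3 partner Tnip1 (0.98 ± 0.116) were at the top. Sigirr, an inhibitory member of the interleukin-1 receptor family, was lower by a change of -0.56 ± 0.097. Of 6 survival genes 3 rose and 2 fell, with Bcl2a1 at 2.32 ± 0.273, Gadd45b at 0.95 ± 0.316, Xiap at -0.84 ± 0.207 and Cflar at -0.65 ± 0.184. The counts of inhibitors and of survival genes do not set either list apart from all genes. Gadd45b lost its call with quantile normalization (0.62, adjusted p = 0.11). Of 9 inflammatory genes 6 rose, led by Lcn2 (6.70 ± 0.902), an acute phase protein that binds bacterial iron carriers, and the chemokine Ccl20, which was below the filter level in all sham livers and was at least 15.4-fold higher in ligated saline livers. Of 9 adhesion and cytoskeletal linker genes 8 rose, led by Ezr (3.55 ± 0.293) and Msn (1.71 ± 0.152), whose proteins tie Icam1 and Vcam1 to the actin cortex. The 2 retained genes of other Rel and IkB proteins, Nfkbib and Nfkbiz, did not pass in that comparison (-0.02 and -0.53).

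**Figure D4:**
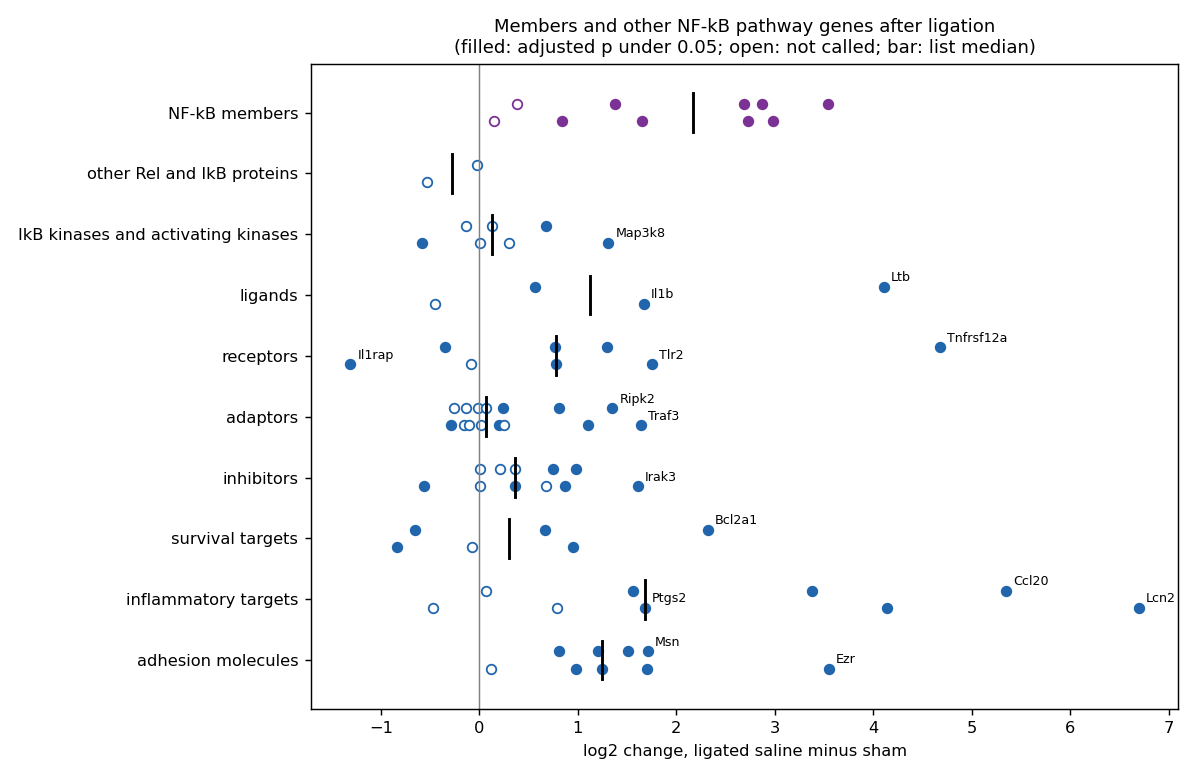
Log2 change between ligated saline and sham livers for the 10 genes (purple) and for the retained genes of 9 other lists of the pathway (blue), filled where the adjusted p was under 0.05, with a black bar at each list's median. The bar of the 10 genes lies at 2.17, and those of adaptors and kinases lie at 0.07 and 0.13.

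With ghrelin, 1 of the 71 pathway genes passed limma against ligated saline, beside 2.34% of all genes, so the count does not set the pathway apart. The gene was Ptgs2, the inducible cyclooxygenase. It read 4.35, 3.64, 4.02, 3.53 and 3.85 in ligated ghrelin livers, 4.27 to 5.81 in ligated saline livers and 3.12 to 3.50 in sham livers. The probe set was above the filter level in all 6 ligated saline livers, but below it in 3 of 5 ligated ghrelin livers and in 6 of 6 sham livers, so it was retained mainly through the group where it is high. The fitted difference between ligated ghrelin and ligated saline was -1.07 ± 0.246 (adjusted p = 0.0389, limma), against values at the dim end of the scale. The stricter filter removed the gene. The call was lost with no filter, with only both ligated groups in the fit, and without any 1 of ligated saline 1, 2, 3 and 5 or ligated ghrelin 2, 3 and 5, with adjusted p from 0.02 to 0.11 over the alternatives that retained it. In the same comparison Sigirr (0.40, adjusted p = 0.0508), Nfkbib (0.41, adjusted p = 0.0528) and Ripk2 (-0.91, adjusted p = 0.0567) narrowly missed a call in limma. Sigirr passed limma with quantile normalization (0.42, adjusted p = 0.0415) and with array medians set equal (0.47, adjusted p = 0.0365). Under either scaling 1 gene of the other Rel and IkB proteins also rose, and with quantile normalization 1 inhibitor fell.

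Among the 11 ligated rats the genes varied with one another to different degrees. Over 45 pairs, with 1 probe set for each gene, 38 correlations lay above 0, with a median Pearson r of 0.39 and a range from -0.49 to 0.87. After Benjamini-Hochberg adjustment over the pairs, 3 passed for r and 0 for Spearman's rho (10 pairs for r at an unadjusted p under 0.05). Nfkb2 and Icam1 had r = 0.87 (permutation p = 0.00052, adjusted p = 0.0234) and rho = 0.70 (permutation p = 0.0201, adjusted p = 0.132). For Nfkb2 and Relb r was 0.83 (permutation p = 0.00156, adjusted p = 0.0234) and rho 0.56 (permutation p = 0.0764, adjusted p = 0.265). Relb and Icam1 had r = 0.83 (permutation p = 0.00143, adjusted p = 0.0234) and rho = 0.78 (permutation p = 0.00621, adjusted p = 0.132). Leaving out the 2 rats farthest from the median of the first gene gave r = 0.69, 0.51 and 0.72 for these pairs in that order.

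**Figure D5:**
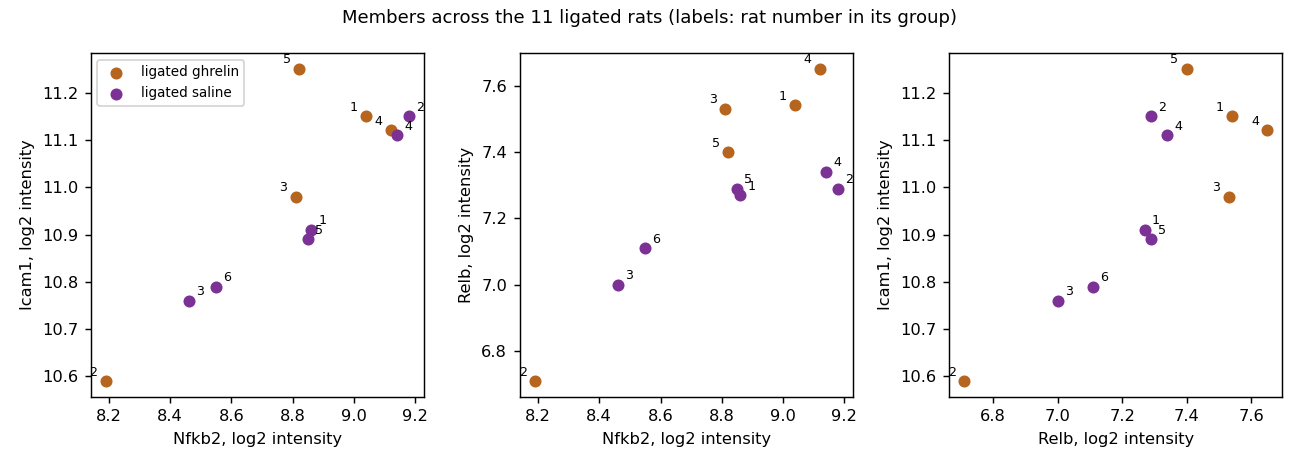
Log2 intensity of Nfkb2, Relb and Icam1 against one another in the 11 ligated rats, with ligated ghrelin in orange, ligated saline in purple and the rat number in its group beside each point. Ligated ghrelin 2 is the lowest point in all 3 panels, at 8.19 for Nfkb2, 6.71 for Relb and 10.59 for Icam1.

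The lowest point bears on these relations. Without ligated ghrelin 2, r was 0.78 for Nfkb2 and Icam1, 0.69 for Nfkb2 and Relb and 0.71 for Relb and Icam1, and none of these 3 pairs passed. The 1 pair of the 45 that then passed was Nfkb2 and Tnfaip3 (r = 0.92 over 10 rats, permutation p = 0.00014, adjusted p = 0.0063, and rho = 0.88, permutation p = 0.00146). Over all 11 rats that pair had r = 0.73 (permutation p = 0.0101, adjusted p = 0.114) and rho = 0.82 (permutation p = 0.00318, adjusted p = 0.132). In the 6 ligated saline rats alone r was 0.98 for Nfkb2 and Icam1, 0.91 for Nfkb2 and Relb, 0.80 for Relb and Icam1 and 0.98 for Nfkb2 and Tnfaip3. In that group 6 pairs had an unadjusted exact p under 0.05 and none passed after adjustment, but the smallest exact p of 0.00139 adjusts to 0.0625 for a single pair, so 1 pair alone could not pass. The arrays share their scaling, which enters every such correlation.

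The retained genes whose pattern over the 11 ligated rats was most like each gene were ranked by Pearson r among 9735 others, as a description with no test. For Nfkb2 they were Icam1 (0.87) and Bmp2 (0.84), and for Relb Bmp2 (0.90) and Isy1 (0.90). For Nfkb1 they were Axl and Prkd3 (0.95 each), and for Rela Ints1 (0.95) and Arih2 (0.92). The feedback genes gave Tifa (0.89) and Blzf1 (0.88) for Nfkbia, H19 and Plcd1 (0.77 each) for Tnfaip3, Atp6v1b2 (0.94) and Arhgap9 (0.89) for Birc3, and Zfp36 and Tbc1d12 (0.91 each) for Bcl3. Vcam1 was most like Tnfaip8 and Lrrc8c (0.96 each), and Icam1 most like Nfkb2 (0.87) and Tmem86a (0.84). These are the highest values among many genes over few rats, and the arrays they come from are shared.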

How the data were processed

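Liver RNA of 17 rats was hybridized to 1 array each. The authors deposited linear intensity values per probe set made with GCRMA, per the submitters' processing notes, which name no version or settings. The lowest deposited intensity value was 2.14, and log2 was taken without a pseudocount. From 31099 probe sets 57 controls were removed. Symbols came from the platform annotation, where 20826 probe sets have 1 symbol and 436 several. All 10 genes kept their symbol in RefSeq by gene identifier. Group means were fitted over all 17 arrays with limma 3.58.1 in R 4.3.3, without covariates, with eBayes (14 residual and 2.54 prior degrees of freedom) and Benjamini-Hochberg adjustment over the 15965 retained probe sets, and a call is an adjusted p under 0.05. The fit was also run on simulated data with independent noise and few changed probe sets, a setting unlike the ligation comparison. A list gene is represented by its retained probe set with the highest mean. Named pathway genes are the 2 called genes with the largest rise and the 2 with the largest fall of each list after ligation, plus those called with ghrelin. Correlations used 100000 permutations. The genes, lists and tests were chosen with earlier results of these data known. A scaling of the whole array moves the split of calls. In ligated saline against sham 55.7% of calls were higher, with 42% after quantile normalization, 39% with equal array medians and 27.1% without the filter. In ligated ghrelin against ligated saline the share was 59.2%, with 67.3% and 80.4% after these scalings. In ligated ghrelin against sham it was 56%, with 43.8% and 43.1%, and 25.7% without the filter. The median change of all probe sets in ligated saline against sham moved from 0.04 to -0.11 and -0.15 under the scalings.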

Additional observations from a re-analysis of the deposited data

Results flagged for a closer look

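Each of 33 combinations of a retained probe set and a group was searched for 1 value far from the others of its group, and 3 were found, where chance gives about 1 in 20 groups. Relb read 6.71 in ligated ghrelin 2, against 7.40 to 7.65 in the other ligated ghrelin livers. Relb also read 3.20 in sham 2, against 4.67 to 4.90 in the other sham livers. Bcl3 probe set 1380414_at read 5.43 in sham 5, against 3.93 to 4.19 in the other sham livers.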

How the results depend on the processing

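Over 627 alternative values of the 11 probe sets, 624 kept their direction and side of the threshold, or had never been called, and 0 reversed. The other 3 are those of Bcl3 probe set 1398482_at without sham 5, and without sham 2 and sham 5 together for ligated ghrelin, given above; that joint omission was chosen after seeing the data. Nfkbia kept its call after ligation with adjusted p up to 0.0128, and Rela its call for ligated ghrelin against sham with adjusted p up to 0.0333. Over all probe sets, omitting the filter gave 22230, 154 and 19914 calls for the 3 comparisons (ligated saline with sham, ligated ghrelin with ligated saline, ligated ghrelin with sham), against 9825, 355 and 8534. For ligated ghrelin minus ligated saline, quantile normalization gave 542 calls, equal array medians 611 and a fit of only those groups 118, and leaving out 1 array gave 35 to 653, moving by over 1.5 times without any of them but ligated saline 2. Leaving out 1 array, the Icam1 to Vcam1 difference ran from 0.54 to 0.82 for ligated ghrelin minus ligated saline and from -0.81 to -0.58 for ligated ghrelin minus sham. The pairs of correlated genes were 0 in 6 ligated saline rats, where a single pair could not pass (0.0625 at best), and 1 without ligated ghrelin 2, an alternative chosen after seeing the data. Of 477 alternative values of named pathway genes 458 kept their call and 19 lost it, those of Ltbr, Ptgs2 and Gadd45b. Of 513 alternative list counts 480 stayed within 1.5 times. The causes were not tested. A second probe set for the ratios could give no value, as those genes have 1 each. No paired analysis was possible because the replicate numbers used here only name rats within a group and tie no rats together across groups. The number of arrays, not counting depth, limits these values.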
